A study of Homo sapiens with 8 samples.

Results

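TFAM, TFB1M, TFB2M, POLRMT, POLG, POLG2, SSBP1, LRPPRC, SLIRP and LONP1 are nuclear genes whose products copy, transcribe and look after mitochondrial DNA (mtDNA) and its RNA. These 10 genes were given by name, with earlier results of these data known. They were matched, through RefSeq identifiers, to 20 of 24812 listed transcripts and to 10 of 14528 named genes. Their expression was compared between normoxic and hypoxic SQ20B cells, an established line of head and neck squamous cell carcinoma. The study sequenced poly(A)-selected RNA of 8 samples, 4 kept in normoxia and 4 kept in 0.5% O2 for 16 h, with no engineered allele named for either group. The treatment field of the labels gives the hypoxic incubation for all 8 samples, and the groups were taken from the source field, which names 4 as normoxia. The authors' table lists 1 value per transcript and condition, combined over that condition's samples. No spread between samples could therefore be computed, no test was run, and each value below stands without an error or an n.

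The unit is FPKM, in which the fragments of a transcript are divided by its length and by the size of the library, so that levels of different genes are compared per length. A gene's level is the sum of its listed transcripts. A change is log2(FPKM + 0.1) in hypoxia minus log2(FPKM + 0.1) in normoxia, which understates the change of genes near 0.1 FPKM. Counts refer to genes or transcripts with a mean of at least 0.5 FPKM over the conditions, and a gene or transcript was counted as lower or higher where FPKM + 0.1 differed by at least 1.5-fold. In bulk RNA, fewer cells expressing a gene and less RNA per cell cannot be told apart.

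In mitochondria, POLRMT is the RNA polymerase, TFAM bends and packages mtDNA and recruits the polymerase, and TFB2M melts the promoter. TFB1M is related to TFB2M but methylates the small ribosomal RNA. POLG and POLG2 form the DNA polymerase, SSBP1 coats single-stranded mtDNA, and LRPPRC with SLIRP stabilises mitochondrial mRNAs and aids their polyadenylation. LONP1 is a matrix protease that degrades TFAM among other substrates. Nuclear respiratory factor 1 (NRF1) and the ETS-family factor GABP are known activators of several of these genes, and LONP1 is a known target of HIF-1, the transcription factor stabilised in hypoxia.

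The promoters of the 3 factors of transcription initiation, of TFB1M and of LONP1 are shown because each carries the letters of an NRF1 or an ETS core, and because LONP1 alone carries those of the E-box and the HIF core. Each is the 250 bases before a start site in RefSeq (GRCh38.p14), 5′ to 3′ on the strand of the gene, and capitals mark matches on either strand to CGCANGCG (NRF1 core), CCGGAAG (ETS core), AAGATGGC (YY1 core), ACGTG (HIF core) or CACGTG (E-box), the last of which contains ACGTG on both strands. TFAM lies at chr10:58385160-58385409 (plus strand), TFB1M at chr6:155314485-155314734, TFB2M at chr1:246566262-246566511, POLRMT at chr19:633538-633787 and LONP1 at chr19:5720147-5720396 (minus strands).
TFAM: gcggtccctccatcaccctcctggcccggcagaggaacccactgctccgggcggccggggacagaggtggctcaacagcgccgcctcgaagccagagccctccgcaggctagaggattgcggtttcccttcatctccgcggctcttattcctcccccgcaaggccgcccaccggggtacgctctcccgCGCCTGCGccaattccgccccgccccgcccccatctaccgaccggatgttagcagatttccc
TFB1M: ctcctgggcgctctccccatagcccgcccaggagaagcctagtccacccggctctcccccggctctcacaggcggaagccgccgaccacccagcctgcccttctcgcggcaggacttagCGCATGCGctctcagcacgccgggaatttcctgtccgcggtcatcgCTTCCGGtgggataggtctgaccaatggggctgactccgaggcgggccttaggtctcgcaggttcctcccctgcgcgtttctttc
TFB2M: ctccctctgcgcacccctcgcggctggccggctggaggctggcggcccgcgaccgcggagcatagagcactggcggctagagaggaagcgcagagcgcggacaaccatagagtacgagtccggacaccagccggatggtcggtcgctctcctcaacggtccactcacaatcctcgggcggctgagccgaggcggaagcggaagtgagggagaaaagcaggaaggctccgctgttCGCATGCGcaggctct
POLRMT: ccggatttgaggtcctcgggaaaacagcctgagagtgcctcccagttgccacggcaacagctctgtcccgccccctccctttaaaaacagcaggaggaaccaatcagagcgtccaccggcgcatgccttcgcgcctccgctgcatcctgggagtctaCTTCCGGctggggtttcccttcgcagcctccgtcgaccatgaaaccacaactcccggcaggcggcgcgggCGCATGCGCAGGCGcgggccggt
LONP1: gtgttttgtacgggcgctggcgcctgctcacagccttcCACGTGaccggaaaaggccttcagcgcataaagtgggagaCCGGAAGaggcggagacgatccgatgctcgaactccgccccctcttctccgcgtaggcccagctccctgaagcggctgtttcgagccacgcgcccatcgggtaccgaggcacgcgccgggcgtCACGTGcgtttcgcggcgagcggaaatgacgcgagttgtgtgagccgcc

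The NRF1 core was found upstream of 6 of the 10 genes, in 6 of their 14 windows. It ended 55 bases before the start of TFAM, 124 before that of TFB1M, 9 before that of TFB2M and 6 before that of POLG2, and POLRMT held 2 overlapping copies that ended 16 and 10 bases before its start. In LONP1 it lay in the window of a second listed start (bases 199 to 192 before it), not in the window printed. Among all 35116 promoters tabled from RefSeq, 8.69% held this core, and among the 13962 promoters of genes with a mean of at least 0.5 FPKM 15.1% did. The ETS core was present for LONP1, POLG2, POLRMT, SLIRP, SSBP1 and TFB1M. It was in 7 of the 14 windows, against 8.52% of all promoters and 14.6% of those of expressed genes. The YY1 core was present for SLIRP and SSBP1, in 3 of the 14 windows, against 1.36% of all promoters and 1.81% of those of expressed genes. The HIF core and the E-box were present for LONP1 alone, with E-box copies at 212 to 207 and 49 to 44 bases before the printed start. The HIF core was in 2 of the 14 windows and the E-box in 1. Of all promoters, 18.5% held the HIF core and 6.34% the E-box, and of those of expressed genes 22.5% and 8.17%. POLG and LRPPRC held none of these letters in the window. The 14 windows of the 10 genes overlap where a gene has several starts, and these matches are matches of letters only.

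Within the set, the levels in normoxia spanned from 922 FPKM for SLIRP to 0.407 FPKM for POLRMT. Next after SLIRP came SSBP1 at 411, LRPPRC at 135 and TFAM at 81.1 FPKM. TFB2M at 20.2 and TFB1M at 12.8 FPKM were intermediate. POLG2 at 5.33, POLG at 4.98 and LONP1 at 4.07 FPKM were within a narrow range of each other. The median of all 12106 genes above the limit was 9.27 FPKM in normoxia. In hypoxia the order from SLIRP to POLG2 was the same, while LONP1 at 4.17 FPKM stood above POLG at 3.18. Whether neighbours in this order differ beyond the spread of the samples could not be assessed.

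**Figure D1:**
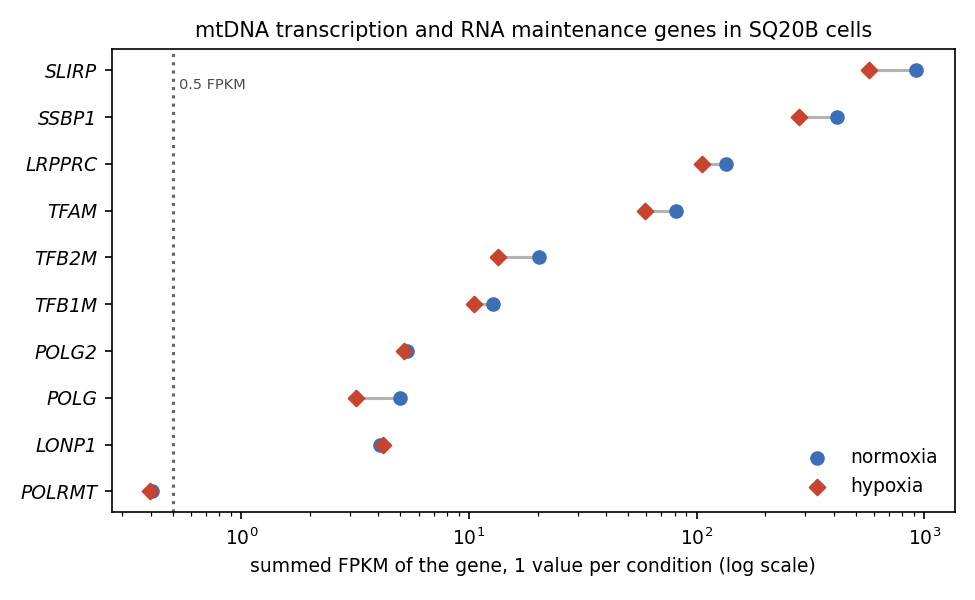
Summed FPKM of the 10 genes (log scale) in normoxia (blue circles) and hypoxia (red diamonds), 1 value per condition with no error, and the limit of 0.5 FPKM (dotted line). SLIRP is the highest at 922 and 571 FPKM, POLRMT lies below the limit at 0.407 and 0.398 FPKM, and LONP1 is the only gene with the higher value in hypoxia.

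Of the 9 genes above the limit, 8 had a lower value in hypoxia than in normoxia, where 56.4% of all 12106 genes did. Their median log2 change was -0.45, beside -0.07 for all genes. SLIRP, POLG and TFB2M, 3 of the 9, were lower by at least 1.5-fold, against 11.2% of all genes, and none of the 9 was higher by that fold, against 9.95% of all genes. At 1.2-fold, 7 of the 9 were lower against 33.0% of all genes, and none was higher against 23.8%. None reached 2-fold, where 2.62% of all genes were lower and 3.21% higher. TFB2M, at 1.51-fold, was just inside the 1.5-fold limit, and SSBP1, at 1.46-fold, was just outside it. The count of 3 depended on the scale of the columns: it was 1 of 9 (11.1%) after centring on the median of all genes, where 8.76% of all genes were lower, 1 of 9 after quantile normalization, where 8.44% were, and 0 when the FPKM columns were scaled to equal sums, where 4.94% were. The members' share is near that of all genes on these scales. POLG2 is among the 8 genes with a lower value, and with equal sums or centring it was not, which left 7.

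The FPKM column of hypoxia sums to 458431 against 536005 in normoxia, so that scaling to equal sums adds 0.23 to the log2 change of genes well above 0.1 FPKM and moves the median of all genes to 0.15. Under that scaling 599 genes were lower and 2221 higher by 1.5-fold, where the deposited values gave 1361 and 1204. The median of the 9 genes then was -0.23. Relative to the median of all genes it was -0.38 in the deposited values, -0.38 with equal sums and -0.26 after quantile normalization. In the table as a whole the more abundant genes had the lower medians. The median log2 change was 0.09 for the 4439 genes with a mean of 0.5 to 5 FPKM, -0.10 for the 5896 genes from 5 to 50 FPKM and -0.27 for the 1651 genes from 50 to 500 FPKM. TFAM, LRPPRC and SSBP1 are in the last of these ranges, and 17.2% of its genes were lower by 1.5-fold. Above 500 FPKM, where SLIRP lies, the median of 120 genes was -0.29 and 11.7% were lower by that fold. The part of abundance in their changes was not tested.

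**Figure D2:**
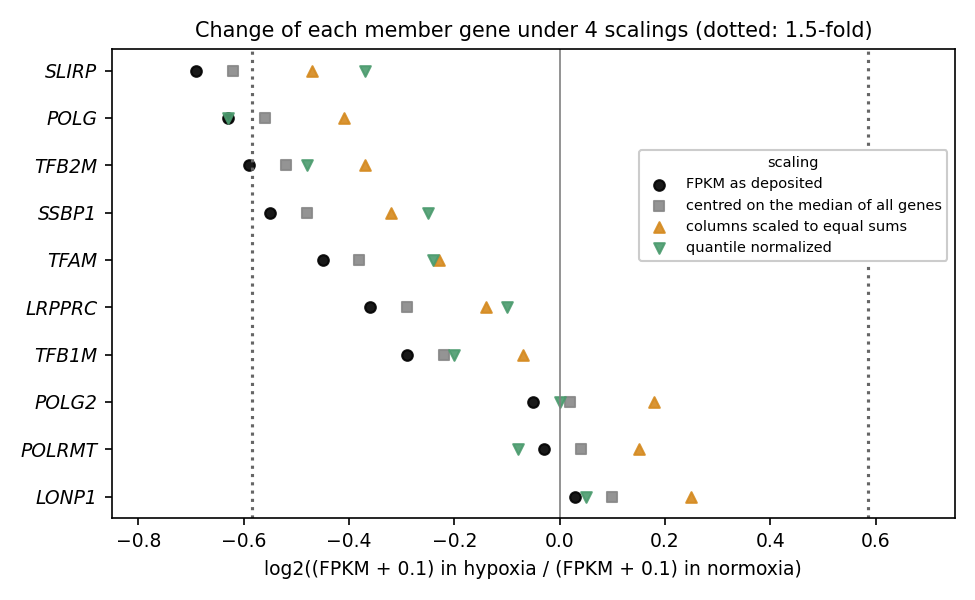
Log2 change of each of the 10 genes with the FPKM values as deposited (black), centred on the median of all genes (grey), with columns scaled to equal sums (orange) and quantile normalized (green), where dotted lines mark 1.5-fold. SLIRP, POLG and TFB2M lie past the line as deposited, none does with equal sums, and POLG2, POLRMT and LONP1 lie within 0.25 of 0 on every scale.

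Among the factors that start transcription of mtDNA, TFAM was listed at 81.1 FPKM in normoxic and 59.3 FPKM in hypoxic cells. The hypoxic value was 73.2% of the normoxic one, a log2 change of -0.45, and 18.6% of all genes had a lower change. TFAM lies on chromosome 10 of hg19, in a listed locus from 60144903 to 60158990. TFB2M, on chromosome 1 (246703863 to 246729565), was listed at 20.2 and 13.4 FPKM, a log2 change of -0.59. Its value with equal sums was -0.37, so that it was lower in hypoxia on each scale that was tried, as was TFAM with -0.23. POLRMT, on chromosome 19 (617223 to 633568), was at 0.407 FPKM in normoxic cells and 0.398 in hypoxic cells. With a mean of 0.403 FPKM it did not pass the limit and enters none of the counts. Its log2 change was -0.03, and 0.15 with equal sums, so that its direction depended on the scale. The ratio of TFAM to TFB2M, which multiplying a column by 1 factor cannot alter, was 4.00 in normoxia and 4.43 in hypoxia.

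TFB1M, the ribosomal RNA methyltransferase, was listed at 12.8 FPKM in normoxic and 10.5 FPKM in hypoxic cells. Its log2 change was -0.29 and came to -0.07 with equal sums. It shares its listed locus on chromosome 6 (155411423 to 155635617) with transcripts of TIAM2 and CLDN20. Against its paralogue it was less abundant in both conditions, with 1.58 times as much TFB2M as TFB1M in normoxia and 1.28 times in hypoxia.

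The subunits of the mitochondrial DNA polymerase differed from each other. POLG, the catalytic subunit on chromosome 15 (89787194 to 89878026, a locus shared with FANCI), was listed at 4.98 FPKM in normoxic and 3.18 FPKM in hypoxic cells. POLG2, the accessory subunit on chromosome 17 (62473902 to 62493184), was listed at 5.33 and 5.16 FPKM. Their log2 changes were -0.63 and -0.05, and the ratio of POLG to POLG2 was 0.934 in normoxia and 0.616 in hypoxia. POLG remained lower on each scale, from -0.63 to -0.41, and with 1 FPKM added in place of 0.1 its change was -0.52. The change of POLG2 was 0.18 with equal sums and 0.02 after centring, so it had no direction that held across scales. SSBP1, on chromosome 7 (141438121 to 141450288), was listed at 411 and 281 FPKM, a log2 change of -0.55. Its hypoxic value was 68.4% of the normoxic one.

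LRPPRC and SLIRP act as a complex, and SLIRP was the more abundant RNA in both conditions. LRPPRC, on chromosome 2 (44113363 to 44223144), was listed at 135 FPKM in normoxic and 105 FPKM in hypoxic cells, a log2 change of -0.36. SLIRP, on chromosome 14 (78174414 to 78183941), was listed at 922 and 571 FPKM, a log2 change of -0.69 and the lowest of the set in the deposited values. Only 7.55% of all genes had a lower change than SLIRP. The ratio of SLIRP to LRPPRC was 6.82 in normoxia and 5.42 in hypoxia. On every scale that was tried both genes were lower in hypoxia, with -0.47 for SLIRP and -0.14 for LRPPRC at equal sums and -0.37 and -0.10 after quantile normalization.

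LONP1 was listed at 4.07 FPKM in normoxic and 4.17 FPKM in hypoxic cells, a log2 change of 0.03 and the highest of the set. With equal sums its change was 0.25. The value rests on 1 noncoding transcript, NR_076392, on chromosome 19 (5691845 to 5720463), and coding transcripts of LONP1 were not analysed here, so it is not a measure of the mRNA that encodes the protease. For comparison, of 6 listed reference genes for hypoxia 5 were higher in hypoxic cells by at least 1.5-fold. CA9, a carbonic anhydrase, was listed at 0.694 and 21.6 FPKM, BNIP3, a mitophagy receptor, at 68.9 and 490.0 FPKM, and PDK1, which inhibits pyruvate dehydrogenase, at 6.20 and 20.8 FPKM. ADM was listed at 16.8 and 49.2 FPKM and VEGFA, an angiogenic growth factor, at 21.3 and 43.2 FPKM. COX4I1, a subunit of cytochrome c oxidase, went the other way with 177 and 142 FPKM (-0.31).

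At the level of transcripts, 18 of the 20 had a mean of at least 0.5 FPKM, the exceptions being NM_005035 of POLRMT and the noncoding NR_073073 of TFAM. Of the 18, 17 had a lower value in hypoxia and 8 were lower by at least 1.5-fold, against 14.3% of all 18190 transcripts above the limit. None was higher by that fold, against 10.5% of all transcripts. The 8 belong to 5 genes only in part through their main forms, and transcripts of 1 gene share reads, so they are not separate observations. With equal sums the count of 8 was 4, and after quantile normalization it was 5. The share of all transcripts on these scales was not computed, so whether these counts exceed it is not known.

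Most of the RNA of SLIRP, SSBP1 and TFAM was assigned to 1 transcript in each condition. NM_031210 of SLIRP carried 96.5% of the gene's FPKM in normoxia and 96.3% in hypoxia, with 889 and 549 FPKM. NM_003143 of SSBP1 carried 91.0% and 92.5%, with 374 and 260 FPKM. NM_003201 of TFAM carried 94.1% and 96.5%, with 76.3 and 57.2 FPKM. These shares, like any ratio within a column, do not depend on the scaling to equal sums.

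The minor transcripts held the largest log2 changes. NM_001270782 of TFAM was listed at 4.54 FPKM in normoxic and 1.90 FPKM in hypoxic cells (log2 change -1.22), and its share of TFAM went from 5.60% to 3.20%. NM_001256512 of SSBP1 was listed at 12.9 and 5.93 FPKM (-1.11). In POLG, NM_002693 was listed at 1.84 and 0.742 FPKM (-1.21) and NM_001126131 at 3.14 and 2.44 FPKM (-0.35). The share of NM_001126131 in POLG was 63.0% in normoxia and 76.7% in hypoxia, so that most of the lower POLG value in hypoxia came from the other form. These transcripts of POLG encode the same protein and differ in their untranslated leader, and how reliably reads were divided between them was not tested. The other minor forms of SSBP1 (NM_001256510, NM_001256511 and NM_001256513) had log2 changes from -0.88 to -0.44, and those of SLIRP (NM_001267863, NM_001267864 and the noncoding NR_052025) from -0.73 to -0.01.

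**Figure D3:**
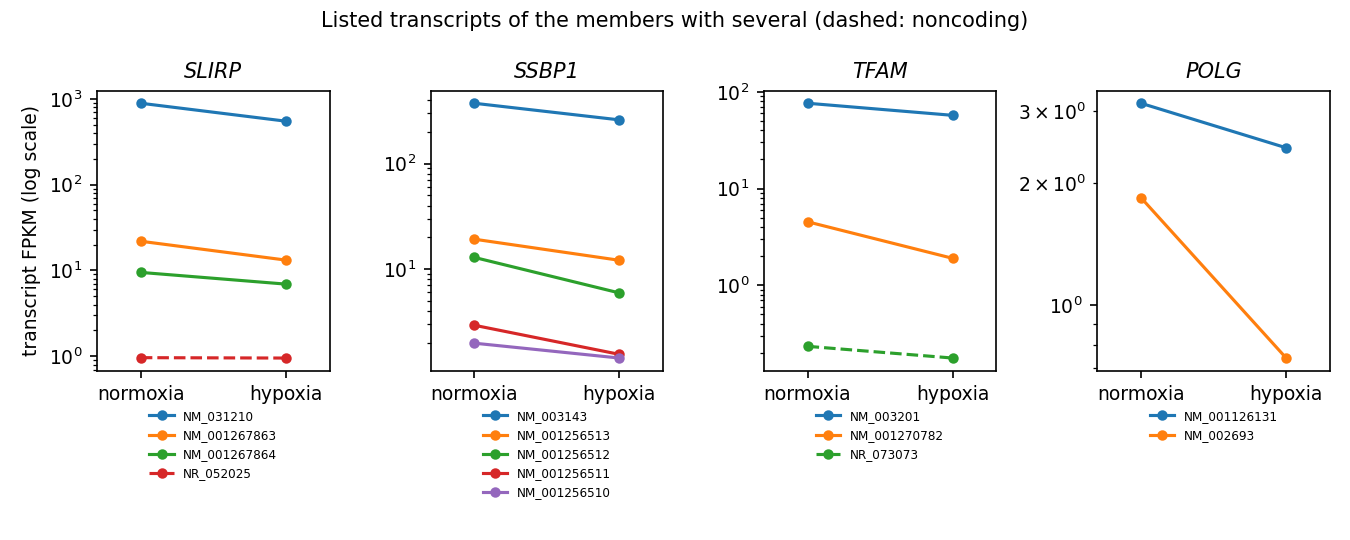
FPKM (log scale, 1 value per condition) of each listed transcript of SLIRP, SSBP1, TFAM and POLG in normoxia and hypoxia, with dashed lines for noncoding transcripts. The main transcripts of SLIRP, SSBP1 and TFAM lie far above the others, while the POLG transcripts stand at 3.14 and 1.84 FPKM in normoxia and at 2.44 and 0.742 FPKM in hypoxia.

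The other genes of mitochondrial gene expression were described through 7 lists of 76 genes, of which 74 passed the limit of 0.5 FPKM. Of these, 72 had a lower value in hypoxia and 22 (29.7%) were lower by at least 1.5-fold, while none was higher by that fold on the scale of FPKM + 0.1. Among all genes 56.4% had a lower value, 11.2% were lower by 1.5-fold and 9.95% higher. The median log2 change of the 74 was -0.44, close to the -0.45 of the 9 genes above. With equal sums the median was -0.22, 57 of the 74 were below 0, 13 were lower by 1.5-fold and 1 was higher, where 36.2% of all genes were below 0, 4.94% lower and 18.3% higher. The lists were chosen with earlier results of these data known, so their shares beside those of all genes are descriptions only. In each list the genes with the lowest and the highest change are named by rule, and others were picked after their values were seen.

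Nuclear regulators of mitochondrial genes had the lowest median, -0.71 over 9 genes, and 5 of them were lower by 1.5-fold. PPRC1, a coactivator of the PGC-1 family, was the lowest with 4.13 FPKM in normoxia and 1.92 in hypoxia (-1.07). GABPA, the DNA-binding subunit of GABP, was the highest with 20.4 and 19.0 FPKM (-0.10), while its partner GABPB1 was listed at 49.2 and 26.5 FPKM (-0.89). NRF1 was listed at 5.99 and 4.18 FPKM (-0.51). PPARGC1A was not analysed here.

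Of the 10 genes of mtDNA replication and the nucleoid above the limit, 4 were lower by 1.5-fold and the median was -0.36. ATAD3A, a membrane ATPase of the nucleoid, was the lowest at 1.82 and 0.692 FPKM (-1.28). Its reads may be divided with its near-identical copy ATAD3B, which was below the limit at 0.542 and 0.195 FPKM (-1.12). How reads were divided between them was not tested. TWNK, the replicative helicase that works with POLG, was listed at 7.94 and 3.69 FPKM (-1.09), and RNASEH1, which removes RNA primers, at 23.9 and 12.2 FPKM (-0.97). TOP3A, a topoisomerase, was the highest at 6.35 and 6.86 FPKM (0.11). The 6 genes of elongation and termination were close together, from MTERF3 at 43.7 and 31.5 FPKM (-0.47) to MTERF2 at 10.6 and 9.45 FPKM (-0.17). None of those 6 was lower by 1.5-fold, and their median of -0.25 was -0.03 with equal sums.

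RNA processing enzymes and FASTK-family proteins had a median of -0.54 over 13 genes, with 5 lower by 1.5-fold. FASTKD3 was the lowest at 27.2 and 14.4 FPKM (-0.92). PTCD1 was the highest at 0.475 and 0.761 FPKM (0.58). Its hypoxic FPKM was 160% of the normoxic one, so that it is past 1.5-fold without the added 0.1 FPKM and was left out of the count only through it, and with equal sums it was counted as higher (0.78). The readthrough gene ATP5MF-PTCD1, which is in none of the lists, went the other way, at 2.027 and 0.8158 FPKM (-1.215). How reads were divided between it and PTCD1 was not tested. TRMT10C and HSD17B10, which with PRORP form the mitochondrial RNase P that cuts tRNAs out of the long transcripts, were listed at 71.6 and 44.2 FPKM (-0.70) and at 38.3 and 22.2 FPKM (-0.78), and PRORP at 24.1 and 16.6 FPKM (-0.54).

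In the list of polyadenylation and decay, 2 of 7 genes were lower by 1.5-fold and the median was -0.34. PNPT1, the exoribonuclease of the mitochondrial degradosome, was the lowest at 66.7 and 34.7 FPKM (-0.94), and MTPAP, the poly(A) polymerase whose activity LRPPRC promotes, was listed at 12.8 and 7.56 FPKM (-0.75). GRSF1, an RNA granule protein, was the highest at 25.8 and 24.0 FPKM (-0.10). Of 20 genes for modification of ribosomal and transfer RNA and ribosome assembly, all had a lower value in hypoxia in the deposited columns and 5 were lower by 1.5-fold, with a median of -0.38. MRM1, a ribosomal RNA methyltransferase, was the lowest at 3.12 and 1.24 FPKM (-1.26), and TRIT1, which modifies transfer RNA, the highest at 27.9 and 26.2 FPKM (-0.09). Of the 9 proteases, CLPP at 6.07 and 3.39 FPKM (-0.82) was lower by 1.5-fold, and CLPX, the unfoldase that feeds it, was listed at 35.5 and 35.4 FPKM. The median of the proteases was -0.30.

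**Figure D4:**
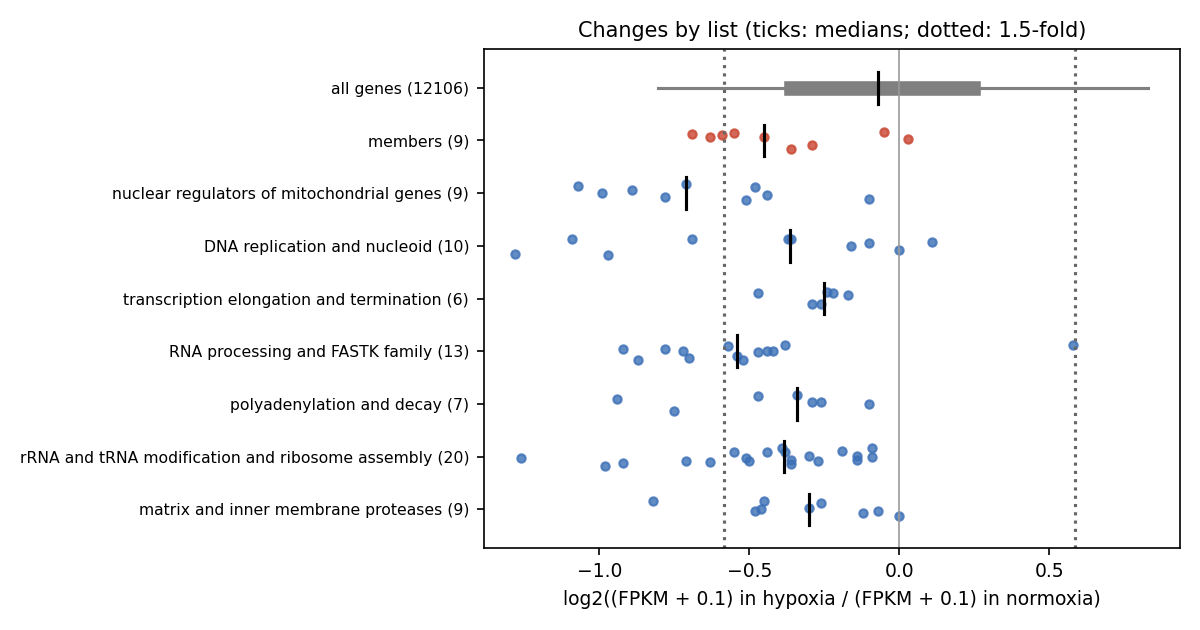
Log2 changes of the 9 genes above 0.5 FPKM (red, labelled members) and of 7 related lists (blue), with the number of genes in brackets, ticks at list medians, dotted lines at 1.5-fold and, on top, the middle 50% (bar) and middle 90% (line) of all 12106 genes. Every list median lies between -0.71 and -0.25, below the median of all genes at -0.07.

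By level in both conditions together, the genes of these lists nearest to LONP1 were TOP1MT, the mitochondrial topoisomerase, at a distance of 0.16 on the log2 scale, and EXOG, a nuclease, at 0.37. For SLIRP none lay near: REXO2 was the closest at a distance of 2.75 and YME1L1 next at 4.44. These distances rest on 2 values per gene.

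GC content of the transcripts moved with the levels. It was computed for the longest protein-coding transcript of each gene in GENCODE (GRCh37) and was available for 91.5% of the genes above the limit. Among the 10 genes it ranged from 36.0% for TFAM and 39.4% for SLIRP to 60.4% for POLG, 62.6% for LONP1 and 66.1% for POLRMT, against a median of 47.2% for all genes. The genes with the highest GC content were those with the lowest FPKM, with a Spearman rho of -0.90 over the 10 genes and -0.35 over 11075 genes. For the log2 change, rho was 0.64 over the 10 genes and 0.01 over all. For LONP1 the GC content is that of a coding transcript, while its FPKM is that of the noncoding NR_076392. Median normoxic FPKM was 19.6 for genes of 35 to 40% GC, 2.49 for those of 60 to 65% and lower still for those of 65 to 70%, with a hypoxic median of 1.32 FPKM. The median log2 changes of these ranges were -0.09, -0.11 and -0.21. Genes share the libraries and are not independent points, and the part of GC content in these levels was not tested.

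**Figure D5:**
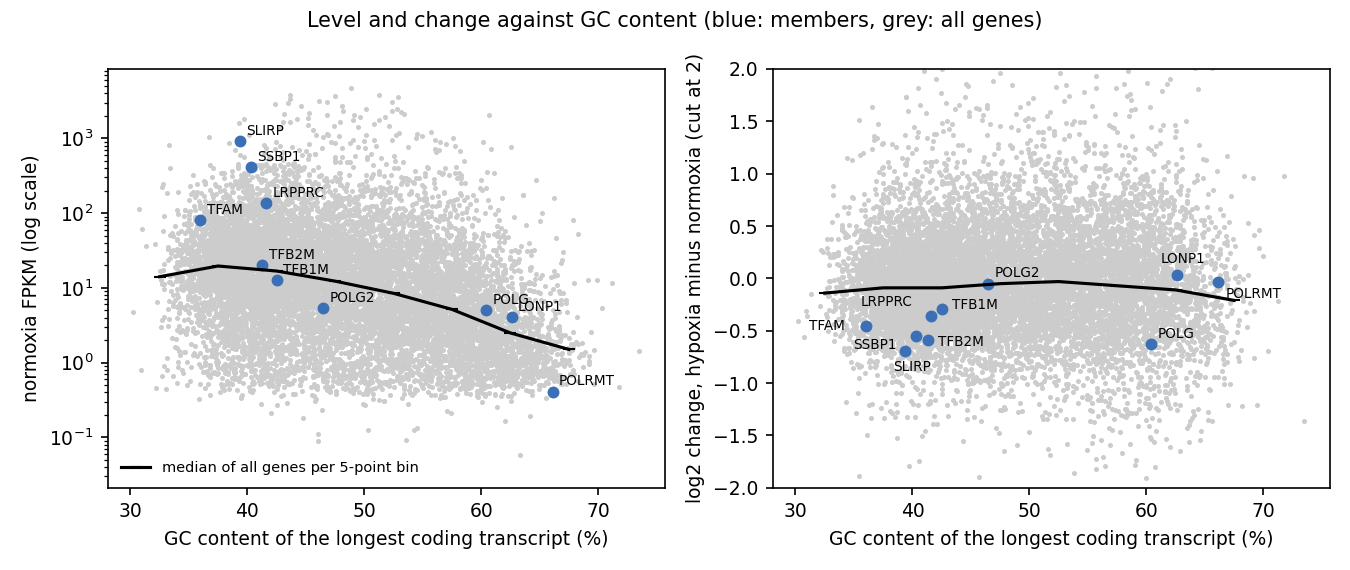
Normoxic FPKM (left, log scale) and log2 change (right, shown from -2 to 2) against GC content, for all genes above 0.5 FPKM (grey), the 10 genes (blue) and the median of all genes in 5-point bins (black). POLRMT at 66.1% GC and 0.407 FPKM lies at the lower right of the left panel, and TFAM at 36.0% GC and 81.1 FPKM at its upper left.

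Transcripts encoded by mtDNA, the product of this machinery, were not analysed here. The table does list 4 nuclear loci of at most 5000 bases whose hg19 sequence aligned over its whole length to the mitochondrial genome, with identities from 81.5% to 93.0%. One carries the annotation MTRNR2L1 (chromosome 17, 22022437 to 22023991) and was listed at 18.3 FPKM in normoxic and 1.76 FPKM in hypoxic cells. Another, MTRNR2L10 (chromosome X, 55207824 to 55208944), was listed at 14 and 1.66 FPKM. NM_001190702 (chromosome 11, 10529434 to 10530723) was listed at 101 and 11.2 FPKM and NM_001190706 (chromosome 6, 62284008 to 62284534) at 23.8 and 2.46 FPKM. The log2 change was -3.31 for MTRNR2L1, -3.23 for NM_001190706, -3.15 for NM_001190702 and -3.0 for MTRNR2L10, lower than for any of the 10 genes, and whether their reads came from these copies or from mitochondrial RNA was not tested.

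Of 7 epithelial markers, not all of them particular to squamous epithelium, 6 were listed. Among these KRT5 (398 and 442 FPKM), KRT17 (50.5 and 56.2), TP63 (42.8 and 44.6) and CDH1 (61.1 and 82.6) were higher in hypoxia. EPCAM at 317 and 233 FPKM (-0.45) and KRT6A at 5.10 and 3.26 FPKM (-0.63) were lower, by log2 changes within the range of the 10 genes. KRT14 was not analysed here. The 6 summed to 875 FPKM in normoxia and 861 FPKM in hypoxia. CD68 (2.36 and 2.86 FPKM) was listed of 4 leukocyte markers, CDH5 (4.78 and 2.83 FPKM) of 3 endothelial markers and none of 4 fibroblast markers, and their part in the results was not tested.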

How the data were processed

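RNA of SQ20B cells, 4 normoxic and 4 hypoxic samples grouped by their source label, had been poly(A)-selected and sequenced. Per the submitters' processing notes, STAR 2.3.0.1, Cufflinks 2.1.1 and the hg19 build were used. The authors deposited 1 FPKM value per transcript and condition, pooled over samples. The study's methods give an average read depth per sample, but the table holds no read counts behind a value, so no counting interval was computed. Columns with their own fold changes, test statistics, p-values and q-values were not used. Identifiers were matched to RefSeq symbols (97.9% of transcripts) and FPKM was summed per gene. Changes used a pseudocount of 0.1 FPKM, a minimum mean of 0.5 FPKM and a 1.5-fold limit. A value counted as moved under an alternative past 0.1 on the log2 scale. The 10 genes, and the lowest and highest gene of each list, were named by rule. Members and lists were chosen with earlier results of these data known. Alternatives covered the pseudocount, the minimum, the fold, 3 other scalings and coding transcripts only. Coordinates of the listed loci are hg19, counted from 1, and a listed locus can include neighbouring genes. Those of the promoters are GRCh38.p14. Python 3.11.15, numpy 2.4.6, pandas 2.3.3, matplotlib 3.10.9 and BLAST 2.17.0 were used, and the scripts were tested on simulated data.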

Additional observations from a re-analysis of the deposited data

How the results depend on the processing

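With 1 pooled value per condition, no test, replicate error or left-out sample could be had, and depth could not be set beside a value. No paired analysis was possible because the columns carry no replicate numbers. The median log2 change of the 9 genes (-0.45) was -0.24 after quantile normalization and -0.23 with equal sums. With coding transcripts only, which leaves out LONP1, the median was -0.50 and 3 genes were lower by 1.5-fold. The count of genes lower by 1.5-fold (3) was 1 after quantile normalization, 0 with equal sums, 1 after centring, 1 with a pseudocount of 1 FPKM, 7 at 1.2-fold and 0 at 2-fold. The count of transcripts (8) was 5 after quantile normalization, 4 with equal sums, 15 at 1.2-fold and 3 at 2-fold, and no share of all transcripts was computed at these settings. With equal sums the list medians were -0.14 for DNA replication and nucleoid, -0.31 for RNA processing, -0.08 for proteases, -0.48 for nuclear regulators, -0.12 for polyadenylation and decay, -0.16 for ribosomal and transfer RNA modification and -0.03 for elongation and termination. After quantile normalization they were -0.09 for proteases, -0.59 for nuclear regulators and -0.13 for elongation and termination. The median of nuclear regulators was also -0.61 with a minimum of 1 FPKM and -0.45 with a pseudocount of 1 FPKM. Equal sums and centring turned the sign of POLG2 (0.18 and 0.02), so that 7 of the 9 genes had a lower value. They also turned that of POLRMT (0.15 and 0.04), which is not among the 9. Equal sums turned the balance of all genes from 1361 lower and 1204 higher to 599 and 2221. The cause of these shifts, beyond the scaling itself, was not tested.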
